A study of Homo sapiens with 26 samples.

Results

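The zinc finger genes of chromosome 19 were followed across the depletion of DNA methyltransferases in NCCIT cells, an established human embryonal carcinoma line. A gene was included where its approved symbol was ZNF and a number, its RefSeq position was chromosome 19 and a row of the expression table named it alone. The rule uses no measured difference between groups, and it gave 233 of the 18417 genes measured. Of these, 225 were protein coding in RefSeq and 8 were not (ZNF137P, ZNF542P, ZNF702P, ZNF781, ZNF788P, ZNF818P, ZNF826P and ZNF833P). RefSeq places 263 such symbols on chromosome 19, and 30 of them were not followed, among them genes found only in the 22 rows that name several genes. Where a gene had several rows, as 5 of the 233 did, the row with the highest mean was taken. All 233 were tested, with no filter on low values, and 34 of them had a mean below 5.89 and so lay among the dimmest 40% of genes.

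Expression had been measured on 26 whole-transcript arrays from 250 ng of RNA, in 13 groups of 2 arrays. Each group was transfected with small interfering RNA (siRNA): a non-targeting control (siNTC-1 and siNTC-2, 2 separate control groups), siRNA against 1 methyltransferase (siDNMT1, siDNMT3A, siDNMT3B, siDNMT3L), or siRNA against several together (siD1+3A, siD1+3B, siD1+3A+3B, 3A+3B, 3A+3L, 3B+3L, 3A+3B+3L, where D1 stands for DNMT1). All groups are the same line, with no genetic deletion, and the knockdowns are partial and transient; the sources used here give neither the time after transfection nor the siRNA dose. The deposited values are on a log2 scale, so a difference of 1 is a doubling. The labels do not say that the arrays of a pair came from separate cultures, and the p-values measure only how far these arrays spread, which may be technical. Near-identical zinc finger paralogs can share probes, so neighbouring genes of one cluster are not fully separate measurements.

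Most of these genes encode a KRAB domain followed by a row of C2H2 zinc fingers. The fingers bind DNA, and the KRAB domain recruits TRIM28 (KAP1), which brings in the histone methyltransferase SETDB1 and silences the bound site with H3K9 methylation; many such proteins bind transposable elements. The genes arose by repeated local duplication and lie in clusters along the chromosome. DNMT1 copies DNA methylation after replication, DNMT3A and DNMT3B add it anew, and DNMT3L is a catalytically inactive partner of the DNMT3 enzymes that is expressed in germ and pluripotent cells.

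The targeted genes and the arrays were checked first. DNMT1 stood at 37.4% of its control in siDNMT1 and at 49.9% to 59.5% in the combinations that include it, and DNMT3A at 67% to 78.5% in its 6 groups. DNMT3L stood at 68.3% to 79.7% in its 4 groups, and at 75.6% in siDNMT1, which was not aimed at it (limma adjusted p = 0.0203). In siDNMT3B, also not aimed at it, DNMT3L read 5.66 and 5.65, below both siNTC-1 arrays, at 5.76 and 6.17. These values lie around 5.89, the limit of the dimmest genes. DNMT3B stood at 50.3% in siDNMT3B and at 72.6% to 87.1% in 4 combinations, but at 99.4% in the group labelled 3A+3B+3L (adjusted p = 0.951), so that group is not shown to be depleted of DNMT3B. The expression values separate the arrays into 2 sets that no label names: siNTC-1, siDNMT1, siDNMT3B and siDNMT3L (8 arrays, the first set), and the other 9 groups with siNTC-2 (18 arrays, the second set). Each group was therefore compared with the control of its own set. The 7 embryonal carcinoma markers measured all lay above the median gene, at 9.38 to 12.33, and 0 of 5 fibroblast, 0 of 4 blood and 0 of 4 hepatic or yolk sac markers did. In such bulk samples fewer cells of a type and less RNA per cell cannot be told apart.

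Promoter sequences were available for 200 of the 233 genes (RefSeq, GRCh38.p14). The 250 bases before the annotated start are shown for 6 genes to which the results return: 3 of the cluster that runs from ZNF101 to ZNF254 (ZNF43, ZNF254 and ZNF675) and 3 from later clusters (ZNF813, ZNF845 and ZNF587). Clusters here are runs of at least 5 protein-coding genes of the 233 whose neighbours lie at most 5 gene positions apart, and each is called by its first and last gene. Capitals mark CpG dinucleotides, the bases that the methyltransferases act on, and each sequence reads 5′ to 3′ on the gene's own strand.
ZNF43, chr19:21836183-21836432, minus strand: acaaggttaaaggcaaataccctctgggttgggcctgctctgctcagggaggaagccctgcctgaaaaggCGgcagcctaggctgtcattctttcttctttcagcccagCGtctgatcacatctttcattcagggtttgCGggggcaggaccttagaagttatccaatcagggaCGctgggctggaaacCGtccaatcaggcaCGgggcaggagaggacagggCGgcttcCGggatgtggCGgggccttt
ZNF254, chr19:24086937-24087186, plus strand: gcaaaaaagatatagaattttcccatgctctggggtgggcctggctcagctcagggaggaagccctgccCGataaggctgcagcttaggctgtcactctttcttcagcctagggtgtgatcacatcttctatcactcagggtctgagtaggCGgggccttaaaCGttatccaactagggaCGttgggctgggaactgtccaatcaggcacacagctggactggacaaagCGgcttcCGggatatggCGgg
ZNF675, chr19:23687213-23687462, minus strand: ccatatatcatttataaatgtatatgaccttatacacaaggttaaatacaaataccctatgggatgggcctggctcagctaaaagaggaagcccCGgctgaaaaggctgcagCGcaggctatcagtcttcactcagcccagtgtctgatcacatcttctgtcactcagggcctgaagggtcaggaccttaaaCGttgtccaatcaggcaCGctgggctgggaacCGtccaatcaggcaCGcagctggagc
ZNF813, chr19:53467483-53467732, plus strand: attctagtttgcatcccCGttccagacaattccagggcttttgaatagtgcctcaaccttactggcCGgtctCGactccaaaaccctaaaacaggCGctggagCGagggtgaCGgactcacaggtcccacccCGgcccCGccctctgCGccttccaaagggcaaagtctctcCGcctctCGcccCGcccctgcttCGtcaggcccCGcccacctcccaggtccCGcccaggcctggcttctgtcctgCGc
ZNF845, chr19:53333499-53333748, plus strand: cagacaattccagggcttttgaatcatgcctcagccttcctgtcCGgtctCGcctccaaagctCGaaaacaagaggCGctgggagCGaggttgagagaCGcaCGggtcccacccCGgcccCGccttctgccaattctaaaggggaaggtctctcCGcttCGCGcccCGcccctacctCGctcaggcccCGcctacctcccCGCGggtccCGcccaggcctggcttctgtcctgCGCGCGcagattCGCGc
ZNF587, chr19:57849609-57849858, plus strand: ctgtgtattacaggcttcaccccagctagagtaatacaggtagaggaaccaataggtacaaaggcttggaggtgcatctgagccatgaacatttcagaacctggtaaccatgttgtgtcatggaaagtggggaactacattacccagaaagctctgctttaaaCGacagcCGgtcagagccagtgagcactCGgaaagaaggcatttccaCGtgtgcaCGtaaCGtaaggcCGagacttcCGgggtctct
ZNF43 had 9 CpG in these bases, ZNF254 had 7 and ZNF675 had 6, and ZNF813 had 16, ZNF845 had 23 and ZNF587 had 8. The lines of ZNF43, ZNF254 and ZNF675 each hold ccaatca, the letters read by the factor NF-Y.

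Across the 3 single depletions of the first set, more of the zinc finger genes rose than fell. In siDNMT1, 31 rose and 11 fell (18% called at limma adjusted p 0.05, against 19.8% of all genes). In siDNMT3B, 38 rose and 12 fell (21.5%, against 24.2% of all genes), and in siDNMT3L, 42 rose and 7 fell (21%, against 19.2% of all genes). Of all genes, 9.26%, 11.8% and 9.32% were higher. The share of genes called was thus near that of the whole array, and the directions were not: 73.8%, 76% and 85.7% of the called zinc finger genes were higher, where 46.7%, 48.8% and 48.6% of all called genes were. The ZNF genes of other chromosomes also had more rises than falls, 36 and 20, 45 and 15, and 44 and 12 of 247. The other genes of chromosome 19 had fewer rises than falls, 46 and 104, 68 and 125, and 59 and 120 of 1075. These 3 comparisons share the 2 siNTC-1 arrays, the pair that differed most within a group over the zinc finger genes. Their median absolute difference was 0.123, against 0.066 (3A+3B) to 0.097 (siDNMT3B) in the other groups. Their correlation over these genes, 0.9926, was the lowest of any group. The limma p-values use a spread estimated over all groups, so they do not reflect the larger spread of this control by itself. Set against the mean of both controls, the zinc finger genes were higher and lower 32 and 33 times in siDNMT1, 46 and 31 times in siDNMT3B and 46 and 28 times in siDNMT3L, so the excess of rises depends on the control in siDNMT1. The median difference was small in each, 0.05, 0.07 and 0.06. Without siDNMT1 replicate 2 the siDNMT1 count was 24 in place of 42, and without siDNMT3L replicate 2 the siDNMT3L count was 32 in place of 49. A fit of only the 2 groups of each comparison called 4, 18 and 3 of the genes.

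**Figure D1:**
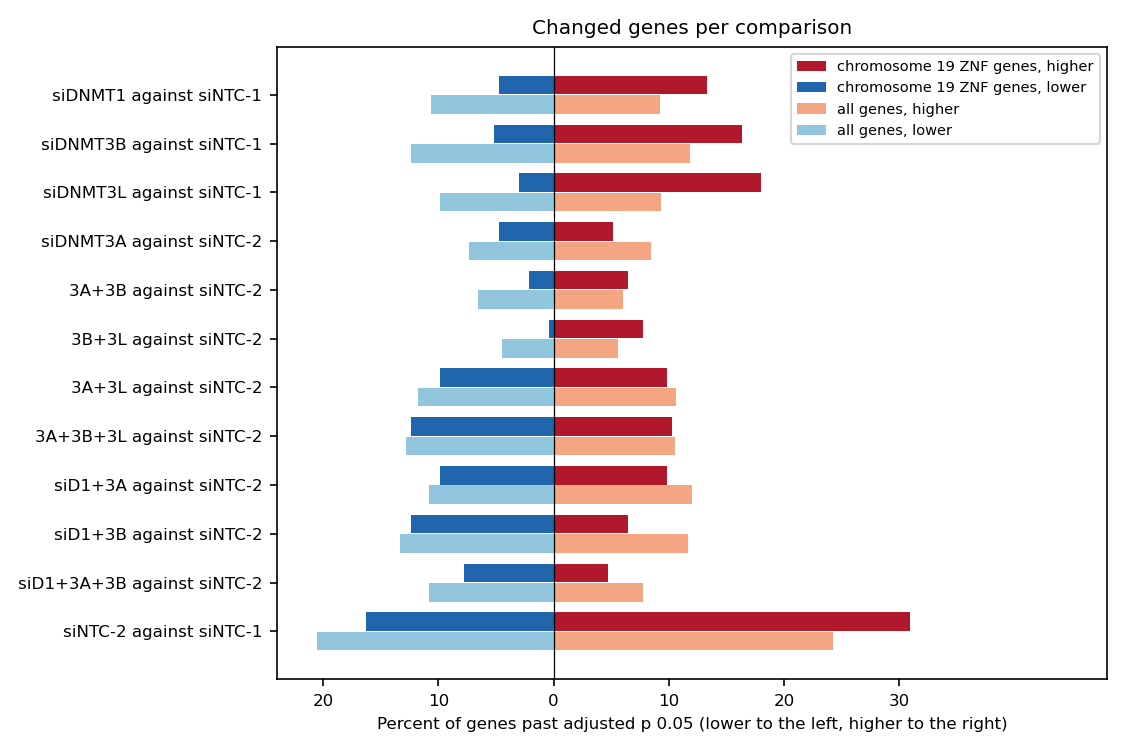
Percent of genes past limma adjusted p 0.05 in each comparison with a control, higher to the right and lower to the left, for the 233 chromosome 19 zinc finger genes (dark bars) and all 18417 genes (pale bars), 2 arrays a group. In siDNMT3L 18% of the zinc finger genes were higher against 9.32% of all genes, and the bars are longest between the controls.

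In the second set the counts were lower or more even. In siDNMT3A 12 genes rose and 11 fell (9.87%, against 15.8% of all genes). In 3B+3L 18 rose and 1 fell (8.15%, against 10.1%), and in 3A+3B 15 rose and 5 fell (8.58%, against 12.6%). The combinations with DNMT1 gave 23 and 23 in siD1+3A (19.7%, against 22.8%), 11 and 18 in siD1+3A+3B (12.4%, against 18.6%) and 15 and 29 in siD1+3B (18.9%, against 25%). Of all genes, 8.44% were higher in siDNMT3A, 5.61% in 3B+3L, 6.04% in 3A+3B, 12% in siD1+3A, 7.74% in siD1+3A+3B and 11.7% in siD1+3B. In 3A+3L 23 rose and 23 fell (19.7%, against 22.4%), and in 3A+3B+3L 24 rose and 29 fell (22.7%, against 23.3%), where 10.6% and 10.5% of all genes were higher. The 8 comparisons share the siNTC-2 arrays, and without siNTC-2 replicate 1 or 2 the counts fell to 8 and 12 in siDNMT3A, 26 and 29 in siD1+3A, 14 and 18 in siD1+3A+3B, 26 and 26 in siD1+3B, and 11 and 6 in 3A+3B. They fell likewise to 29 and 23 in 3A+3L, to 8 in 3B+3L without replicate 2 and to 33 in 3A+3B+3L without replicate 2. Without 1 of a group's own arrays they were 13 and 14 in siDNMT3A, 25 and 19 in siD1+3A, 21 and 20 in siD1+3B, 16 in siD1+3A+3B without replicate 1, 8 and 5 in 3A+3B, 28 and 30 in 3A+3L, 6 and 11 in 3B+3L and 30 and 32 in 3A+3B+3L. After quantile normalization the rises and falls were 15 and 16 in siD1+3A+3B and 19 and 24 in siD1+3B. Of the genes, 79 varied among the 4 groups of the first set and 79 among the 9 of the second (33.9% in each, against 37.1% and 36.8% of all genes), and 42 varied in both. The ZNF genes of other chromosomes also had more rises than falls in 3B+3L and 3A+3B, 22 and 3, and 16 and 8, of 247.

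To describe the response to one siRNA over several backgrounds, differences that share no arrays were averaged: each adds that siRNA to a group labelled with the same other siRNAs. The groups were not equal otherwise where 3A+3B+3L enters: DNMT3B stood at 99.4% there, against 73.5% in 3A+3B, 72.6% in 3B+3L and 87.1% in siD1+3A+3B, so those differences also carry a difference in DNMT3B. The same holds for siD1+3A+3B against 3A+3B, at 87.1% and 73.5%. It also holds for siD1+3A+3B against siD1+3B, where DNMT3B read 11.5 and 11.44 against 11.28 and 11.28. The average effect of DNMT3L siRNA rests on siDNMT3L against siNTC-1, 3A+3L against siDNMT3A, and 3A+3B+3L against 3A+3B. It was higher for 25 and lower for 18 of the zinc finger genes (23% of all genes were called), and 33 and 15 after quantile normalization. The largest rises past the threshold with one sign in every difference were ZNF253, ZNF587, ZNF69, ZNF480, ZNF845, ZNF761, ZNF729 and ZNF813, at 0.21 to 0.39 on the log2 scale. The largest falls were ZNF781, ZNF607, ZNF99, ZNF230, ZNF550, ZNF699, ZNF358 and ZNF383, at -0.32 to -0.19. Of these, ZNF813 missed the threshold with the mean of both controls (0.12, limma adjusted p = 0.104), ZNF729 and ZNF99 with array weights (0.0524 and 0.0617), and ZNF69 and ZNF230 in a fit of only the groups compared (0.0672 and 0.0643). On the second set the arrays also fall into 2 neighbourhoods on the first principal component of all genes, with siNTC-2, siDNMT3A, 3A+3B and 3B+3L at 14.6 to 20.2 and the other 5 groups at 3.4 to 9.5. Adding DNMT1 or DNMT3L siRNA to siDNMT3A or to 3A+3B crosses that division, and its part in the counts was not tested.

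ZNF480, a KRAB zinc finger gene of the cluster from ZNF577 to ZNF331, was called in each of the 3 DNMT3L differences, as were 119 of all genes (0.646%) in the rising direction. Its values were 10.74 and 10.75 in siNTC-1 and 11.04 and 10.97 in siDNMT3L. They were 10.85 and 10.81 in siDNMT3A against 11.08 and 11.13 in 3A+3L, and 10.96 and 10.94 in 3A+3B against 11.21 and 11.23 in 3A+3B+3L. Each pair with DNMT3L siRNA lay above its partner with no overlap. The differences were 0.26, 0.27 and 0.27 (limma adjusted p = 0.0011, 0.00171 and 0.0015), and their average was 0.27 ± 0.03 (SE), or 1.2-fold (adjusted p = 2.09e-06).

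ZNF480 was also higher with the other siRNAs. It read 11.05 and 11.02 in siDNMT1 and 11.14 and 11.19 in siDNMT3B, above both siNTC-1 arrays (0.29 and 0.42, limma adjusted p = 0.000408 and 6.26e-06). The siNTC-2 arrays were the lowest of all 26, at 10.62 and 10.54. In the second set, siDNMT3A was 0.25 above siNTC-2 (adjusted p = 0.002), and siD1+3B, at 11.17 and 11.2, was 0.60 above (adjusted p = 6.94e-08). The highest arrays were those of 3A+3B+3L, 0.64 above siNTC-2 (adjusted p = 3.88e-08). The average effects of DNMT1, DNMT3A and DNMT3B siRNA on this gene were 0.21 ± 0.03, 0.17 ± 0.03 and 0.16 ± 0.02 (adjusted p = 5.69e-05, 0.000343 and 0.00036). The additions within the second set were not all rises: siD1+3A+3B stood at -0.14 against siD1+3B and at -0.01 against siD1+3A (adjusted p = 0.156 and 0.959). In every group that received a targeting siRNA, whichever enzyme was aimed at, both arrays of ZNF480 lay above both arrays of the control of their set.

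ZNF253, a KRAB zinc finger gene of the cluster from ZNF101 to ZNF254, had the largest average rise with DNMT3L siRNA. It read 10.64 and 10.44 in siNTC-1 and 10.98 and 11.2 in siDNMT3L, 10.42 and 10.57 in siDNMT3A and 11.16 and 10.8 in 3A+3L, and 10.75 and 10.71 in 3A+3B and 10.86 and 10.89 in 3A+3B+3L. No pair overlapped its partner. The differences were 0.55, 0.48 and 0.15 (limma adjusted p = 0.0011, 0.00603 and 0.48), so the last was not called, and the average was 0.39 ± 0.06, or 1.31-fold (adjusted p = 0.000105). It was as high in siDNMT3B, at 11.09 and 11.16 (0.59 ± 0.1, adjusted p = 0.000434). With only the 2 groups fitted, the siDNMT3L difference missed the threshold (adjusted p = 0.0538).

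ZNF845 and ZNF587, KRAB zinc finger genes of the clusters from ZNF577 to ZNF331 and from ZNF264 to ZNF446, rose on average with both DNMT3L and DNMT1 siRNA. ZNF845 read 8.91 and 9.08 in siNTC-1 and 9.22 and 9.25 in siDNMT3L, and 9.11 and 9.28 in siDNMT3A and 9.66 and 9.55 in 3A+3L. It read 9.43 and 9.37 in 3A+3B, 9.53 and 9.53 in 3A+3B+3L and 9.47 and 9.4 in siD1+3A+3B, the smallest of the differences (0.14 and 0.04, limma adjusted p = 0.243 and 0.837), the latter with overlap. Its average effects were 0.26 ± 0.04 for DNMT3L and 0.16 ± 0.04 for DNMT1 siRNA (limma adjusted p = 5.67e-05 and 0.00527). ZNF587 read 7.04 and 7.05 in siNTC-1, 7.49 and 7.44 in siDNMT3L and 7.19 and 7.43 in siDNMT1. In the second set it read 7.41 and 7.11 in siDNMT3A, 7.58 and 7.84 in 3A+3L and 7.69 and 7.76 in siD1+3A, and again both groups lay above the arrays they were compared with. On 3A+3B, at 7.5 and 7.69, it read 7.76 and 7.7 in 3A+3B+3L and 7.8 and 7.98 in siD1+3A+3B, 0.13 and 0.30 higher (adjusted p = 0.724 and 0.354). Its average effect was 0.34 ± 0.09 for either siRNA (adjusted p = 0.0102 and 0.0116). ZNF761, in the same cluster as ZNF845, had average effects of 0.23 and 0.19 (adjusted p = 0.000986 and 0.00522); probes shared between such neighbours were not examined.

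Among the genes that fell, ZNF781, not protein coding in RefSeq, read 7.02 and 6.99 in siDNMT3A, 6.39 and 6.57 in 3A+3L and 6.57 and 6.6 in siD1+3A. It read 6.79 and 6.77 in 3A+3B, 6.32 and 6.63 in 3A+3B+3L and 6.2 and 6.53 in siD1+3A+3B, so every group with DNMT3L or DNMT1 siRNA lay below its partner there. In the first set siDNMT1, at 6.53 and 6.46, lay within the range of siNTC-1, at 6.42 and 6.61. The siDNMT3L arrays, at 6.41 and 6.35, were just below both siNTC-1 arrays, a difference of -0.13 (limma adjusted p = 0.448). The average effect was -0.32 ± 0.06 for DNMT3L siRNA, to 80% of the level without it (adjusted p = 0.00133), and -0.28 ± 0.06 for DNMT1 siRNA (adjusted p = 0.00454). Its largest fall was in siD1+3B, -0.79 ± 0.11 against siNTC-2 (adjusted p = 4.21e-05).

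ZNF607, of the cluster from ZNF565 to ZNF573, read 7.85 and 7.71 in siNTC-1 and 7.59 and 7.63 in siDNMT3L, and 8.23 and 8.11 in siDNMT3A and 7.96 and 7.84 in 3A+3L. In 3A+3B it read 8.19 and 8.07 and in 3A+3B+3L 7.68 and 7.75. The groups with DNMT3L siRNA were lower without overlap each time, by differences of -0.17, -0.27 and -0.42 (limma adjusted p = 0.0619, 0.0106 and 0.000249). The average was -0.29 ± 0.04, to 82% (adjusted p = 1.47e-05), and with DNMT1 siRNA it was -0.22 ± 0.04 (adjusted p = 0.000244).

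**Figure D2:**
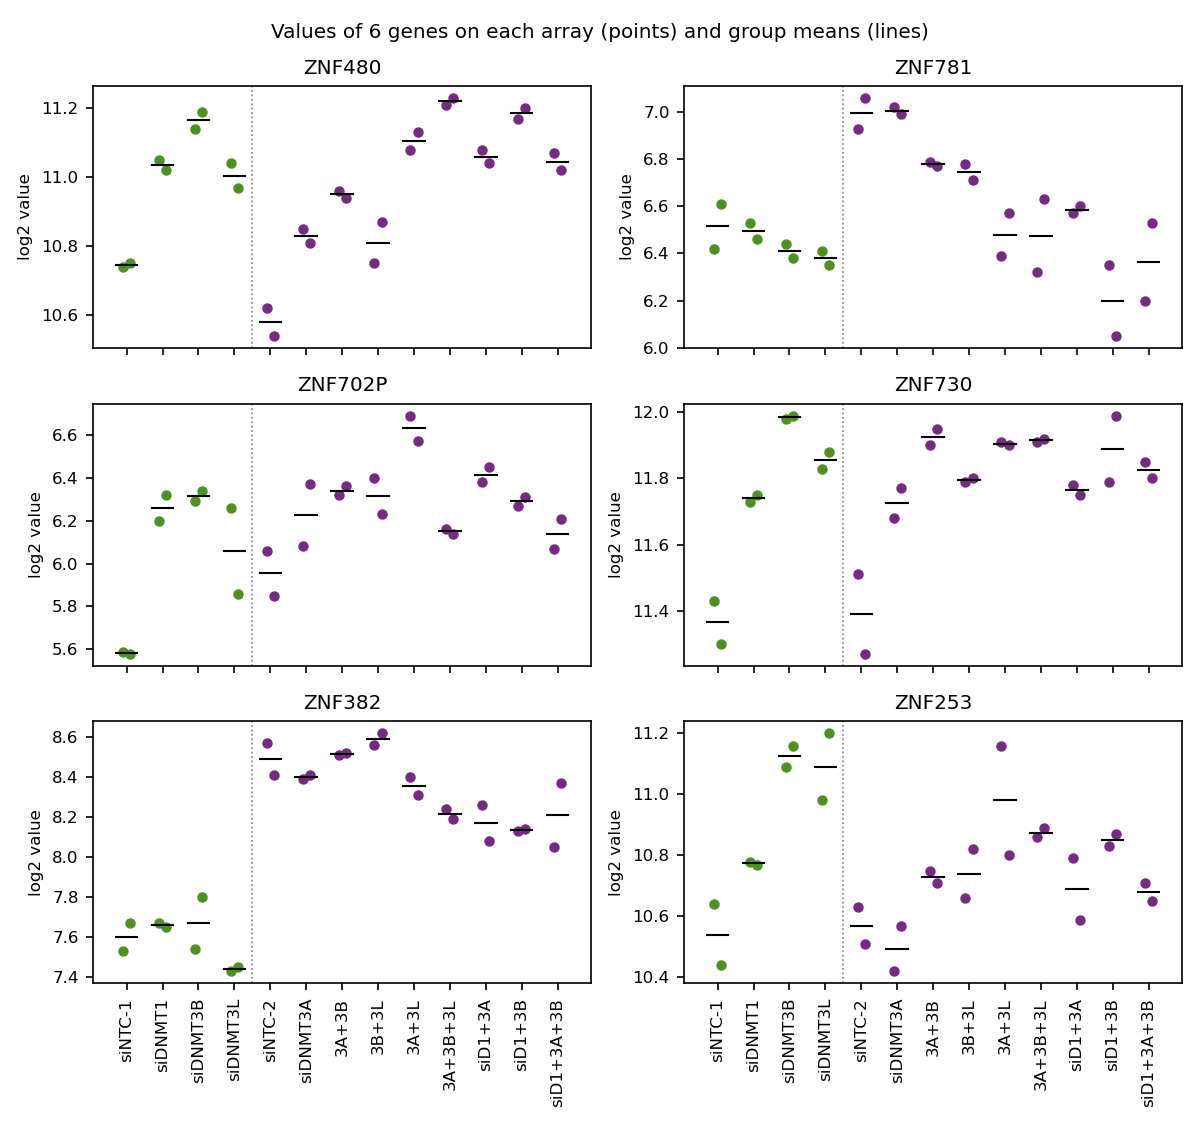
Log2 values (y axis) of 6 chromosome 19 zinc finger genes on each array (points, 2 arrays a group) with the group mean (line); green points left of the dotted line are the first set of arrays and purple points the second. ZNF480 is lowest in siNTC-2 (10.62 and 10.54) and highest in 3A+3B+3L (11.21 and 11.23), and ZNF382 is lower in the whole first set.

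The cluster from ZNF101 to ZNF254 holds 33 of the genes, and those of them that changed in siDNMT3L all rose. In siDNMT3L 15 of its 33 genes rose and 0 fell (limma adjusted p 0.05, with 9.32% of all genes higher), 30 had a positive difference and the median was 0.21, where it was 0.06 over all 233. The 15 ran from ZNF626 (0.20) to ZNF253 (0.55), with ZNF91, ZNF85, ZNF486, ZNF714, ZNF681, ZNF14, ZNF254, ZNF675, ZNF43, ZNF729 and ZNF730 among them; these names follow from the cluster and not from the rule for named genes. In siDNMT3B 12 rose and 2 fell, with a median of 0.16, and in siDNMT1 6 rose and 0 fell, with a median of 0.06. The count in siDNMT3L was 9 without siNTC-1 replicate 2, 6 without siDNMT3L replicate 2, 6 with array weights and 1 in a fit of only the 2 groups, and in siDNMT3B the last was 6. The cluster was singled out after its values had been seen.

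ZNF43 read 11.15 and 10.95 in siNTC-1, 11.44 and 11.46 in siDNMT3L, 11.51 and 11.59 in siDNMT3B and 11.3 and 11.27 in siDNMT1. All 3 depleted groups lay above both control arrays (0.40 ± 0.07, 0.50 ± 0.07 and 0.24, limma adjusted p = 0.000859, 7.13e-05 and 0.0305). ZNF730 read 11.43 and 11.3 in siNTC-1, 11.83 and 11.88 in siDNMT3L, 11.98 and 11.99 in siDNMT3B and 11.73 and 11.75 in siDNMT1, again without overlap (0.49, 0.62 and 0.38, adjusted p = 9.07e-05, 4.7e-06 and 0.00098). ZNF254 read 9.99 and 10.24 in siNTC-1, 10.41 and 10.42 in siDNMT3L and 10.49 and 10.56 in siDNMT3B. ZNF91, whose protein is known to repress SVA elements, read 10.58 and 10.42 in siNTC-1, 10.65 and 10.78 in siDNMT3L and 10.93 and 10.89 in siDNMT3B. The depleted arrays of both genes were above both siNTC-1 arrays.

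In the second set fewer genes of the cluster passed the threshold. With DNMT3L siRNA added to siDNMT3A, 3 of its genes rose and 0 fell (10.1% of all genes were called, 4.07% higher), 28 of 33 differences were positive and the median was 0.14. With DNMT3L siRNA added to 3A+3B, 0 rose and 1 fell (9.42% of all genes, 3.93% higher), 11 were positive and the median was -0.04. The difference between those 2 responses was itself called for 0 of the 233 genes by limma (0.0326% of all genes, and 34 of the 233 at an unadjusted p of 0.05). With DNMT3B siRNA added to siDNMT3A, 29 of the 33 differences were positive with a median of 0.1, and 0 passed the threshold (0.0923% of all genes, and 32 of the 233 at an unadjusted p of 0.05). On average over backgrounds, 8 genes of the cluster rose and 1, ZNF99, fell with DNMT3L siRNA (10.3% of all genes were higher), and 7 rose and 0 fell with DNMT3B siRNA (4.28% higher).

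**Figure D3:**
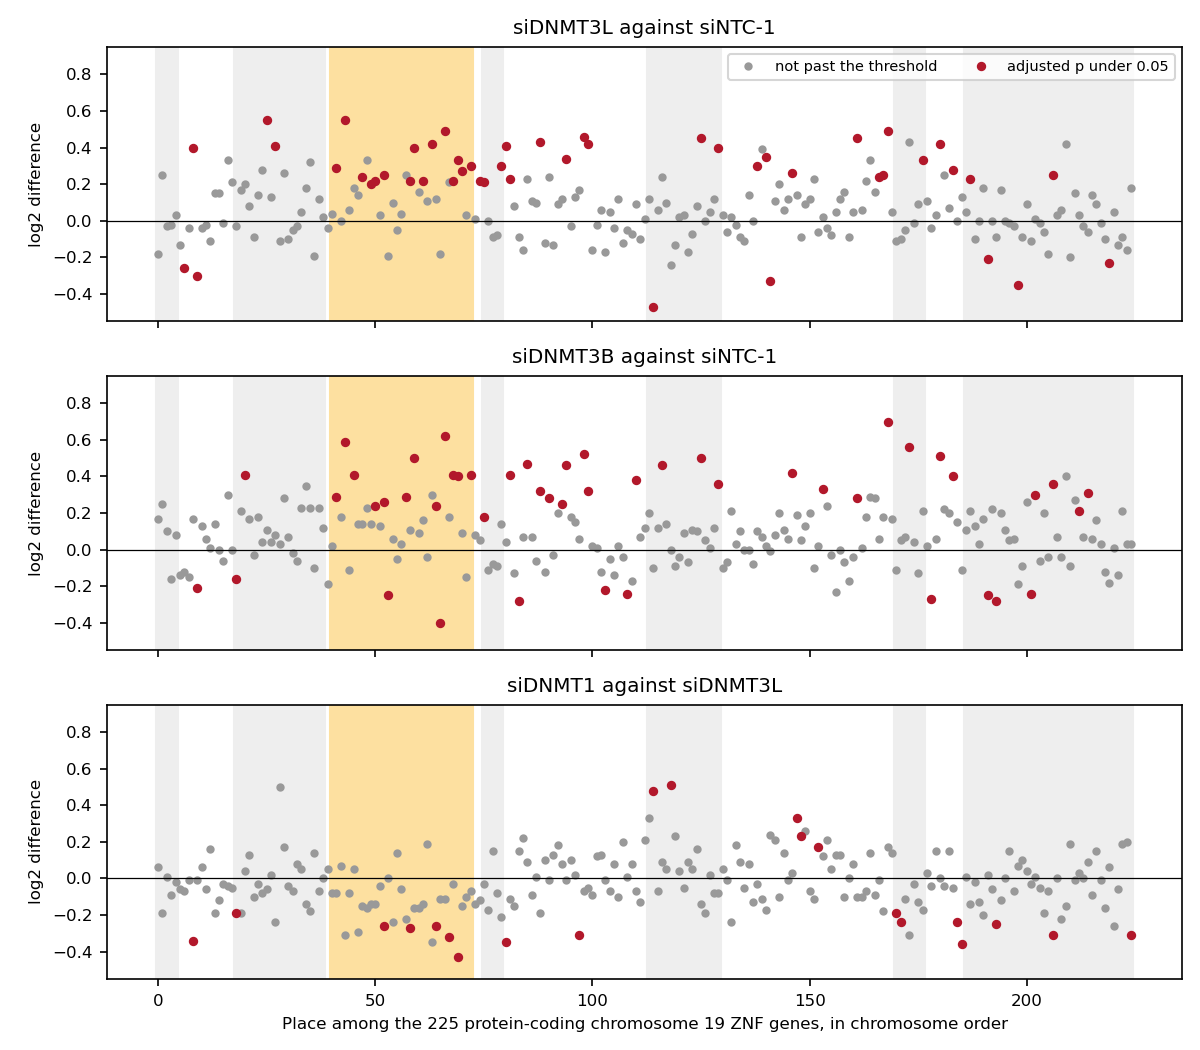
Log2 difference (y axis) of the 225 protein-coding zinc finger genes in their order along chromosome 19 (x axis) for siDNMT3L and siDNMT3B against siNTC-1 and siDNMT1 against siDNMT3L, with genes past limma adjusted p 0.05 in red, the cluster from ZNF101 to ZNF254 on yellow and every other cluster on grey or white. In siDNMT3L 30 of the 33 genes of the yellow cluster lie above 0, and in siDNMT1 against siDNMT3L 4 do.

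DNMT1 and DNMT3L siRNA could also be compared directly, with no control array, in siDNMT1 against siDNMT3L, siD1+3A against 3A+3L and siD1+3A+3B against 3A+3B+3L, a comparison added after the data had been seen. DNMT3L itself read 5.47 and 5.66 in siDNMT1 and 5.45 and 5.48 in siDNMT3L, with overlap, so the first difference hardly contrasts DNMT3L. That difference alone gave 5 genes higher and 17 lower (9.44%, against 12.6% of all genes, 6.33% being lower). On average 5 of the 233 genes were higher and 14 lower with DNMT1 in place of DNMT3L siRNA (8.15%, against 11% of all genes), and the count called was 12 without 3A+3L replicate 1. The share lower, 6.01%, was near the 5.11% of all genes. In siD1+3A+3B against 3A+3B+3L alone 0 were higher and 1 lower (1.75% of all genes), and in siD1+3A against 3A+3L 0 passed (0.744%, and 26 of the 233 at an unadjusted p of 0.05). Of the 14, 9 lay in the cluster from ZNF101 to ZNF254, where 0 were higher. That cluster was singled out after its values had been seen, and the siDNMT3L arrays enter this average too. ZNF675 read 11.07 and 11.04 in siDNMT1 and 11.49 and 11.48 in siDNMT3L, and 11.11 and 10.94 in siD1+3A and 11.39 and 11.15 in 3A+3L. It read 11.12 and 11.12 in siD1+3A+3B and 11.25 and 11.11 in 3A+3B+3L, where the ranges overlapped. Its average was -0.25 ± 0.05 (limma adjusted p = 0.00615). ZNF708 read 9.36 and 9.36 in siDNMT1 and 9.48 and 9.73 in siDNMT3L, and 9.09 and 8.96 in siD1+3A and 9.38 and 9.3 in 3A+3L. With DNMT3B siRNA as well it read 9.04 and 8.99 in siD1+3A+3B and 9.22 and 9.3 in 3A+3B+3L, lower with DNMT1 siRNA each time (-0.27 ± 0.05, adjusted p = 0.00192). ZNF253, ZNF724, ZNF90 and ZNF429 of the cluster were lower as well (-0.27, -0.25, -0.19 and -0.18), as were ZNF749 (-0.21) and ZNF565 (-0.20). ZNF230 (0.32), ZNF568 (0.19), ZNF473 (0.15), which takes part in histone mRNA processing, and ZNF227 (0.15) were higher. ZNF90 missed the threshold after quantile normalization (limma adjusted p = 0.0741), and ZNF473 and ZNF227 in a fit of only the groups compared (0.0558 and 0.0579).

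The average effect of DNMT1 siRNA rests on siDNMT1 against siNTC-1, siD1+3A against siDNMT3A and siD1+3A+3B against 3A+3B. It was higher for 14 and lower for 15 of the 233 genes (17.5% of all genes were called). Beside ZNF587, ZNF480, ZNF761 and ZNF845, the rises were led by ZNF221 (0.21), ZNF580, ZNF766 (both 0.16) and ZNF850 (0.15). The falls were led by ZNF781, ZNF749, ZNF607, ZNF358 (-0.20), ZNF44 (-0.18), ZNF708 and ZNF154 (both -0.16) and ZNF611 (-0.14). With the mean of both controls ZNF580 stood at 0.06, and ZNF708 and ZNF611 at -0.12, all short of the threshold (limma adjusted p = 0.309, 0.0828 and 0.0557). ZNF708 also missed it after quantile normalization (0.0779), and ZNF580, ZNF766, ZNF44, ZNF154 and ZNF611 in a fit of only the groups compared (0.0611 to 0.0815). ZNF749 read 8.25 and 8.25 in siNTC-1 and 7.92 and 7.9 in siDNMT1, 7.65 and 7.57 in siDNMT3A and 7.44 and 7.43 in siD1+3A, and 7.56 and 7.53 in 3A+3B and 7.26 and 7.31 in siD1+3A+3B. Each group with DNMT1 siRNA was lower without overlap (-0.34, -0.18 and -0.26, limma adjusted p = 0.00247, 0.14 and 0.0523, and average -0.26 ± 0.04, adjusted p = 0.000211). Against the mean of both controls, however, siDNMT1 stood at -0.0083 (adjusted p = 0.941), since the siNTC-2 arrays, at 7.68 and 7.49, lay below those of siDNMT1. In siDNMT3L ZNF749 read 8.15 and 8.16. No zinc finger gene was called in all 3 differences, as 0.32% of all genes were in the rising and 0.624% in the falling direction.

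The largest rises in siDNMT1 were those of ZNF702P and ZNF813. ZNF702P, a pseudogene, read 5.59 and 5.58 in siNTC-1, 6.2 and 6.32 in siDNMT1, 6.29 and 6.34 in siDNMT3B and 6.26 and 5.86 in siDNMT3L. Its siNTC-1 values lay below 5.89, the limit of the dimmest genes. ZNF813 read 6.75 and 6.87 in siNTC-1, 7.43 and 7.52 in siDNMT1, 7.5 and 7.53 in siDNMT3B and 7.28 and 7.33 in siDNMT3L. Both genes were above siNTC-1 in every depleted array: ZNF702P by 0.68 ± 0.11 in siDNMT1 and 0.73 ± 0.11 in siDNMT3B, and ZNF813 by 0.66 ± 0.09 and 0.70 ± 0.09 (limma adjusted p = 0.000279, 9.24e-05, 7.92e-05 and 2.73e-05). These are 1.6-, 1.66-, 1.58- and 1.63-fold. In siNTC-2, by contrast, ZNF813 already read 7.53 and 7.25, the former within the range of the depleted arrays of the first set and the latter just below it. ZNF702P read 6.06 and 5.85 there. Against the mean of both controls the siDNMT3L difference of ZNF813 was 0.20 and missed the threshold (adjusted p = 0.0669). The cluster of ZNF813, from ZNF577 to ZNF331, had 8 of 35 genes higher and 0 lower in siDNMT1 (9.26% of all genes were higher), 29 positive and a median of 0.14. It is given because ZNF813 lies in it, so it was not chosen independently of these values.

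Adding DNMT1 siRNA to siDNMT3A raised 5 and lowered 4 of the 233 genes (9.62% of all genes, 4.32% higher), and adding it to 3A+3B raised 0 and lowered 4 (3.19%, 1.02% higher). Those 2 responses differed from each other for 0 genes by limma (0.076% of all genes, and 13 of the 233 at an unadjusted p of 0.05). The response with DNMT3A siRNA differed from that without it for 23 genes, 8 up and 15 down (12.7% of all genes), but this sets the second set against the first. The count was 12 without siDNMT1 replicate 1, 10 without either siD1+3A replicate, and 9 without siDNMT3A replicate 2. Across the 233 genes the differences siDNMT1 against siNTC-1 and siD1+3A against siDNMT3A, which share no arrays, had a Pearson r of 0.08, against 0.19 over all genes. Within the second set, siD1+3A against siDNMT3A and siD1+3A+3B against 3A+3B had an r of 0.43 (0.52 over all genes). Genes are not independent replicates, and the arrays of the latter pair share the division on the first component.

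The average effect of DNMT3B siRNA rests on 4 differences and had 19 of the 233 genes higher and 6 lower (10.6% of all genes were called). Of all genes 4.28% were higher, against 8.15% of the 233 and 7.29% of the ZNF genes of other chromosomes. After quantile normalization the rises and falls of the 233 were 24 and 4, and with the mean of both controls 17 and 9. The count of 25 was 14 without siD1+3A replicate 2, 14 without siD1+3A+3B replicate 1, 12 without 3A+3B replicate 1, 16 without 3A+3L replicate 2 and 15 without 3A+3B+3L replicate 1. The rises were led by ZNF233 and ZNF730 (both 0.23), ZNF461 (0.19), ZNF470 (0.16), ZNF805 (0.15) and ZNF331 (0.13), an imprinted gene. The falls were led by ZNF529 (-0.15), ZNF284 (-0.14), ZNF358 (-0.12), ZNF607 and ZNF296 (both -0.11); those of ZNF607 and ZNF284 missed the threshold after quantile normalization (limma adjusted p = 0.0898 and 0.0734), that of ZNF296 with a trended and robust prior (0.0697), and those of ZNF529, ZNF358, ZNF607 and ZNF296 in a fit of only the groups compared (0.0509 to 0.066). ZNF461 missed it with the mean of both controls (0.11, adjusted p = 0.138). ZNF730 read 11.51 and 11.27 in siNTC-2, 11.68 and 11.77 in siDNMT3A, 11.9 and 11.95 in 3A+3B and 11.91 and 11.92 in 3A+3B+3L. Its average effect was 0.23 ± 0.04 (adjusted p = 0.000444), and the 0.62 of siDNMT3B was the largest of the 4 differences in it. Adding DNMT3B siRNA within the second set passed the threshold for 0 genes on siDNMT3A, 0 on 3A+3L (0.0977% of all genes, and 19 of the 233 at an unadjusted p of 0.05) and 0 on siD1+3A (0.57%, 0.179% higher, and 20 at an unadjusted p of 0.05). DNMT3B itself was not lower in 3A+3B+3L than in siNTC-2, as given above. It read 11.63 and 11.69 there against 11.89 and 12 in 3A+3L, however, so it was lower without overlap in the difference averaged.

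The average effect of DNMT3A siRNA had 11 genes higher and 23 lower (18.2% of all genes were called), and 16 and 21 after quantile normalization. The share that fell, 9.87%, was near the 10% of all genes, and the share that rose was 4.72% against 8.18%. The ZNF genes of other chromosomes split likewise, with 9 higher and 27 lower of 247. This average rests on siDNMT3A against siNTC-2, siD1+3A+3B against siD1+3B and 3A+3B+3L against 3B+3L. Of 34 genes called, 20 were left without either siD1+3B replicate, 21 and 20 without siD1+3A+3B replicate 1 and 2, 18 without siDNMT3A replicate 1, 17 without 3B+3L replicate 2 and 22 without 3A+3B+3L replicate 2. The falls were led by ZNF283, ZNF233, ZNF627, ZNF844 (-0.24), ZNF829 (-0.20), ZNF429 (-0.19), ZNF442 and ZNF254 (both -0.18). The rises were led by ZNF584 (0.19), ZNF468, ZNF875 (both 0.17), ZNF551 (0.14), ZNF426 (0.13), ZNF614 (0.11) and ZNF606 (0.09). With the mean of both controls ZNF426 stood at -0.001, ZNF551 at 0.04, ZNF875 at 0.10, ZNF584 at 0.16, ZNF844 at -0.18, ZNF429 at -0.12 and ZNF829 and ZNF442 at -0.11, all short of the threshold. ZNF844 and ZNF442 also missed it after quantile normalization (limma adjusted p = 0.0502 and 0.0558), and ZNF584, ZNF614 and ZNF606 in a fit of only the groups compared (0.0581 to 0.0764).

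ZNF233, in the cluster from ZNF283 to ZNF180, read 6.97 and 6.97 in siNTC-2 and 6.57 and 6.6 in siDNMT3A, 7.09 and 7.11 in 3B+3L and 6.79 and 6.64 in 3A+3B+3L, and 6.57 and 6.64 in siD1+3B and 6.51 and 6.53 in siD1+3A+3B. Each group with DNMT3A siRNA lay lower with no overlap (-0.38, -0.38 and -0.09, limma adjusted p = 0.0181, 0.0149 and 0.776, and average -0.29 ± 0.06, adjusted p = 0.00264). Against the mean of both controls the average was -0.17 and missed the threshold (adjusted p = 0.0634). With DNMT3B siRNA the same gene rose: it read 6.04 and 6.45 in siNTC-1 and 6.67 and 6.82 in siDNMT3B, and 6.89 and 6.84 in 3A+3B against 6.57 and 6.6 in siDNMT3A; the other differences were smaller, from 6.45 and 6.75 in 3A+3L to 6.79 and 6.64 in 3A+3B+3L and from 6.46 and 6.56 in siD1+3A to 6.51 and 6.53 in siD1+3A+3B, with overlap in both. The 4 differences were 0.50, 0.28, 0.12 and 0.01 (adjusted p = 0.00199, 0.331, 0.895 and 0.991), so only the first was called (average 0.23 ± 0.05, adjusted p = 0.01, and 0.14 with an adjusted p of 0.0891 against the mean of both controls). ZNF627 read 8.85 and 8.83 in siNTC-2, 8.66 and 8.54 in siDNMT3A, 8.88 and 8.75 in 3B+3L and 8.39 and 8.45 in 3A+3B+3L, and 8.62 and 8.68 in siD1+3B and 8.52 and 8.53 in siD1+3A+3B. These were differences of -0.24, -0.40 and -0.12 (adjusted p = 0.0597, 0.00203 and 0.539), with an average of -0.25 ± 0.05 (adjusted p = 0.000998). ZNF283, the gene at the start of that cluster, had an average of -0.38 ± 0.08, to 76.7% (adjusted p = 0.00337), on arrays that read 5.08 to 5.99, around the limit of the dimmest genes.

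The difference 3A+3B+3L against 3B+3L gave 37 falls and 5 rises by itself (18.9% of all genes were called, 11.3% being lower against 15.9% of the zinc finger genes). The ZNF genes of other chromosomes also fell more often, 45 falls and 9 rises of 247 (18.2% lower). In the cluster from ZNF565 to ZNF573 10 of 25 genes fell and 1 rose in the same difference, with a median of -0.23. This cluster, too, was picked out with its values known. The difference siD1+3A+3B against siD1+3B gave 0 rises and 1 fall (3.02% of all genes, 1.34% higher). The former crosses the division on the first component, and the latter does not; its part in the counts was not tested.

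The controls differed from each other in more of the zinc finger genes than any depletion did from its control. In siNTC-2 against siNTC-1 72 were higher and 38 lower (47.2%, against 44.7% of all genes), and 55 and 53 after quantile normalization. The difference reached 1.5-fold for 14 genes, and in siDNMT1, siDNMT3B and siDNMT3L for 2, 4 and 0. ZNF382, a KRAB repressor often methylated in tumours, read 7.53 and 7.67 in siNTC-1 and 8.57 and 8.41 in siNTC-2 (0.89 ± 0.09, or 1.85-fold, limma adjusted p = 4.21e-07). ZNF610 (0.82), ZNF665 (0.77), ZNF585A (0.74) and ZNF233 (0.72) followed. ZNF426 read 9.26 and 9.01 in siNTC-1 and 8.39 and 8.37 in siNTC-2 (-0.76 ± 0.07, adjusted p = 8.65e-08), and its 8 arrays of the first set, at 9.01 or more, all lay above the 18 of the second, at 8.74 or less. ZNF749 (-0.66), ZNF551 (-0.57), ZNF814 (-0.53) and ZNF544 (-0.50) were next. What differed between the sets is not given by the labels, and control and set cannot be told apart here. On the principal components of the 233 genes alone, the first carried 44% of the variance and also separated the sets.

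**Figure D4:**
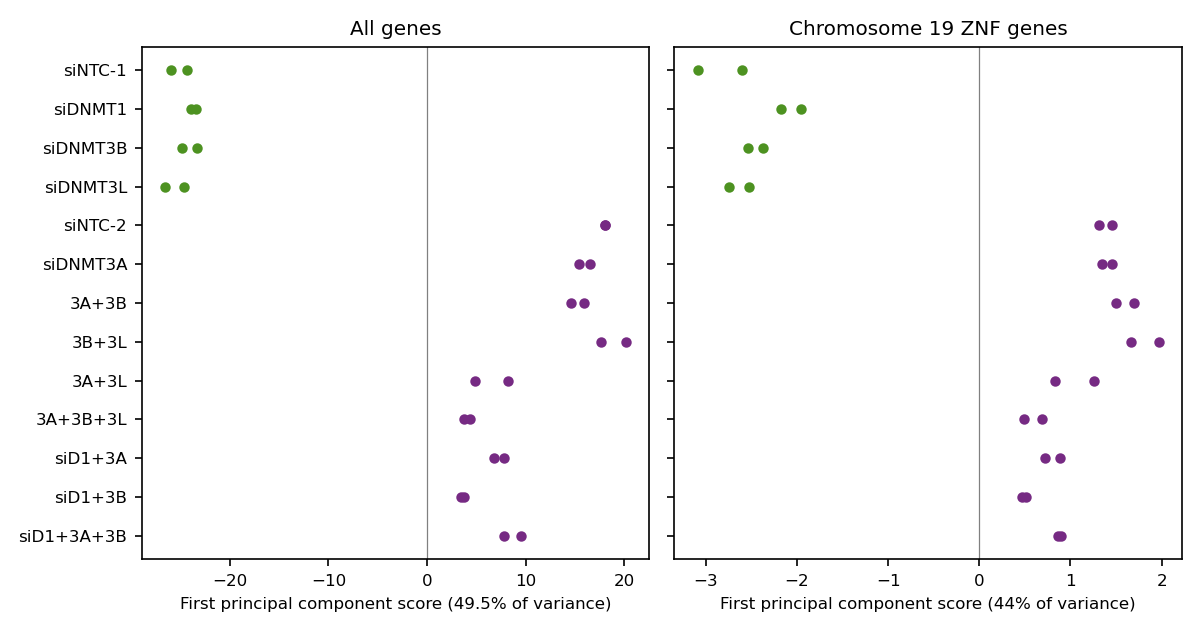
Score of the 26 arrays (points, 2 a group) on the first principal component of all genes (left, 49.5% of variance) and of the 233 zinc finger genes (right, 44%), with the first set in green and the second in purple. The 8 arrays of the first set lie below 0 and the 18 of the second above 0 in both panels.

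Promoters of the genes varied by cluster. In the 300 bases from 250 before to 50 after the start, the zinc finger genes had a median of 20 CpG, against 23 over the 14237 genes with a promoter sequence, and 79% had an observed to expected CpG ratio over 0.6, against 67.2%. The cluster from ZNF101 to ZNF254 stood apart: its 27 promoters had a median of 10 CpG (8 to 18) and a median ratio of 0.45, and 14.8% were over 0.6. All 27 held CCAATCA on either strand, as did 18 of 20 in the cluster from ZNF653 to ZNF791 and 4 of 5 in that from ZNF554 to ZNF77, against 28% of the 200 zinc finger promoters and 8.7% of all promoters; these letters were searched for after the sequences above had been read. CCGGAAGT, the letters of an ETS factor site, were held by 20 of 36 promoters of the cluster from ZNF264 to ZNF446 (55.6%), ZNF587 among them, by 0 of 27 of the cluster from ZNF101 to ZNF254, and by 6.37% of all promoters. TGACGTCA, the letters of a CRE, were held by 5 of 9 promoters of the cluster from ZNF317 to ZNF846, and by 2.65% of all promoters.

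**Figure D5:**
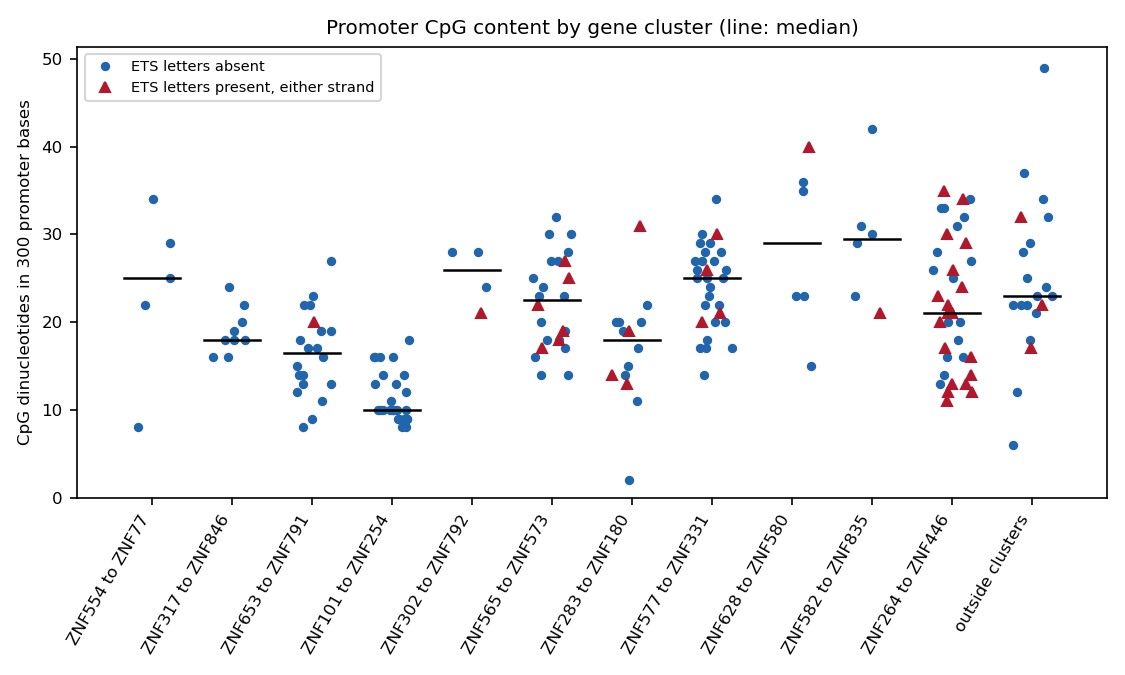
CpG dinucleotides in the 300-base promoter (y axis) of 200 zinc finger genes by cluster, 1 point a gene and a line at the median, with red triangles for promoters that hold the ETS letters on either strand. The cluster from ZNF101 to ZNF254 has a median of 10 and no triangle, and that from ZNF264 to ZNF446 holds 20 of them.

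The CpG ratio was set beside the response as a description, over genes that share the same arrays. Its Pearson r with the average effect of DNMT3L siRNA was -0.24 over 200 promoters, and -0.09 over the 173 outside the cluster from ZNF101 to ZNF254. With siDNMT3L against siNTC-1 it was -0.14, and 0 outside the cluster. With the average effect of DNMT1 siRNA it was -0.06, with DNMT3A 0.04 and with DNMT3B -0.08. ZNF43, ZNF254 and ZNF675, printed above, rose in siDNMT3L and had few CpG, as did their cluster as a whole (median 10). ZNF813 and ZNF845, with more, also rose. The 36 promoters of genes higher in siDNMT3L had a median of 18 CpG, against 20 for all 200. No methylation was measured in these samples.

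The genes known to be methylated in cancers, a list drawn from general knowledge with earlier results of these data known, had 11 of 13 members measured. With DNMT3L siRNA 0 rose and 5 fell on average: ZNF781 (-0.32), ZNF382 (-0.17), ZNF135 (-0.15), ZNF471 and ZNF529 (both -0.14), and the median of the 11 was -0.13 (23% of all genes were called, 12.8% lower). With DNMT1 siRNA 0 rose and 3 fell (17.5% of all genes, 9.82% lower), with DNMT3A siRNA 0 and 2 (18.2%, 10% lower), and with DNMT3B siRNA 1 and 1 (10.6%). Between the controls, where 44.7% of all genes were called, 5 were higher in siNTC-2 (ZNF382 0.89, ZNF135 0.67, ZNF781 0.48, ZNF471 0.45 and ZNF529 0.35) and 1, ZNF671, was lower (-0.35), a share near that background. The siNTC-1 arrays enter both this comparison and the averages for DNMT3L and DNMT1 siRNA. Of 6 measured genes whose proteins are known to bind transposable elements, ZNF91 rose with DNMT3B siRNA (0.14), ZNF611 fell with DNMT1 siRNA (-0.14), and limma called 0 with DNMT3A or DNMT3L siRNA. With 10.6%, 17.5%, 18.2% and 23% of all genes called in these averages, so few calls among 6 genes are near the background. Between the controls ZNF91 was higher (0.19) and ZNF93, which binds L1 elements, lower (-0.44).

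The partners through which KRAB zinc finger proteins silence DNA were measured in all 19 listed genes. On average 2 rose and 4 fell with DNMT1 siRNA, 4 and 2 with DNMT3A, 0 and 0 with DNMT3B, and 5 and 2 with DNMT3L, where 17.5%, 18.2%, 10.6% and 23% of all genes were called. TRIM28 read 10.85 and 10.86 in siNTC-1 and 10.83 and 10.9 in siDNMT3L, and 10.78 and 10.67 in siDNMT3A and 10.77 and 10.85 in 3A+3L, with overlap each time. It read 10.52 and 10.61 in 3A+3B and 10.94 and 10.9 in 3A+3B+3L. The differences were 0.01, 0.09 and 0.36 (limma adjusted p = 0.939, 0.395 and 0.000509), so its average of 0.15 ± 0.03 (adjusted p = 0.00281) rests on the last, which involves the group not shown to be depleted of DNMT3B. SETDB1 had an average of -0.06 with DNMT3L siRNA (adjusted p = 0.239). Of the 13 measured zinc finger genes of these clusters whose names do not start with ZNF, 1 fell on average with DNMT3L siRNA (23% of all genes were called), and limma called 0 with DNMT1, DNMT3A and DNMT3B siRNA (17.5%, 18.2% and 10.6%).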

How the data were processed

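Each array's deposited table holds 1 log2 value a row, summarized by the authors before deposit; the values run from 3.04 to 14.87, from which the log base was inferred. Partek is named in the submitters' processing notes, and the normalization is not given in the sources used here. Of 33297 rows, 19460 had 1 gene symbol, 1754 several and 12083 none in the platform annotation; 19429 of the first matched RefSeq (GRCh38.p14) by gene number, and the highest-mean row was kept for 769 genes with several. Array medians were 6.28 to 6.33. The number of arrays limits the precision.

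Group means of all 13 groups were fitted to 18417 genes with limma 3.58.1 (R 4.3.3; lmFit and eBayes, 13 residual degrees of freedom, two-sided), and p-values were adjusted over all 18417 genes by Benjamini-Hochberg with a threshold of 0.05. The procedure was tested on simulated data. SE is the moderated standard error.

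The members, gene lists, sets of arrays and tests were chosen with earlier results of these data known. Named genes are, for each average effect, the 8 largest rises and falls past the threshold with one sign in every difference averaged, and all called in every difference. They are also the 3 largest each way against a control with both arrays beyond both control arrays, the 5 largest each way between the controls, up to 4 of each list, and the 4 targets. The genes given for the cluster from ZNF101 to ZNF254 were named for their position, after their values were seen. Alternatives tried were quantile normalization, a filter on dim genes, all rows with 1 symbol, a trended and robust variance prior, array weights, the mean of both controls, only the groups compared, a replicate block and leaving out each array. Replicate numbers do not pair arrays: over 78 pairs of groups, the correlation of same-numbered deviations was -0.26 to 0.19, and 9 were over 0.1.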

Additional observations from a re-analysis of the deposited data

Results flagged for a closer look

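Among the genes named for DNMT1 siRNA, the response of 4 differed between groups with and without DNMT3A siRNA, by limma's test of the difference itself. Of all 233 genes, 23 were called in this test (9.87%, against 12.7% of all genes). The 4 were named for large changes in siDNMT1 against siNTC-1, a difference that this test subtracts. They were thus not chosen independently of the test. Each value below is the difference siD1+3A against siDNMT3A minus the difference siDNMT1 against siNTC-1, so it sets the second set of arrays against the first, and the set and the presence of DNMT3A siRNA cannot be told apart. For ZNF702P it was -0.49 ± 0.16 (SE, limma adjusted p = 0.0491), with the second set at 6.08 and 6.37 in siDNMT3A and 6.38 and 6.45 in siD1+3A. For ZNF813 it was -0.58 ± 0.13 (adjusted p = 0.00841), with 7.68 and 7.46 in siDNMT3A and 7.68 and 7.62 in siD1+3A. For ZNF579 it was 0.59 ± 0.10 (adjusted p = 0.00128): the gene read 5.88 and 5.78 in siNTC-1 and 5.58 and 5.42 in siDNMT1, but 5.34 and 5.54 in siDNMT3A and 5.72 and 5.68 in siD1+3A, so it was lower with DNMT1 siRNA in the first set and higher in the second. For the pseudogene ZNF542P it was 0.35 ± 0.09 (adjusted p = 0.0152), from 8.86 and 8.83 in siNTC-1 to 8.45 and 8.59 in siDNMT1, and from 8.35 and 8.49 in siDNMT3A to 8.49 and 8.41 in siD1+3A. The ZNF579 values given all lie below 5.89, the limit of the dimmest genes. In a fit of only the 2 groups, the siDNMT1 falls of ZNF579 and ZNF542P missed the threshold (limma adjusted p = 0.111 and 0.0948).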

How the results depend on the processing

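The limits are these: 2 arrays a group, a spread estimated over all 13 groups, an unknown normalization, and controls that differ from each other more than the depletions do. Of 144 named results, 66 kept their direction and their side of the threshold under every alternative. The mean of both controls reversed 2 of the 144: ZNF426, average effect of DNMT3A siRNA (-0.001), and ZNF738 in 3B+3L (0.0032). Counts are of the 233 genes changed at limma adjusted p 0.05, and the cause of each shift was not tested beyond the construction of the alternative. With the mean of both controls the counts were 51 for the average effect of DNMT1 siRNA (29 in the report), 21 for DNMT3A (34), 69 for DNMT3L (43), 65 in siDNMT1, 54 in siDNMT3A, 77 in siDNMT3B, 74 in siDNMT3L, 53 in siD1+3A+3B, 74 in 3A+3B, 71 in 3A+3L and 82 in 3B+3L, and 14 for the DNMT1 response with against without DNMT3A siRNA (23). The rises and falls were then 15 and 36 for DNMT1, 32 and 37 for DNMT3L, 37 and 17 in siDNMT3A, 42 and 19 in siD1+3A, 31 and 22 in siD1+3A+3B, 31 and 25 in siD1+3B, 48 and 23 in 3A+3L and 34 and 25 in 3A+3B+3L. Fitting only the groups compared, which leaves fewer residual degrees of freedom, gave 18 for DNMT1, 4 in siDNMT1, 8 in siDNMT3A, 18 in siDNMT3B, 3 in siDNMT3L, 8 in 3A+3B, 3 in 3B+3L, 6 for the DNMT1 response with against without DNMT3A siRNA and 30 varying in the first set; the cluster from ZNF101 to ZNF254 then had 1 rise in siDNMT3L and 6 in siDNMT3B. Array weights gave 19 in siDNMT1, 31 in siDNMT3B, 29 in siDNMT3L, 32 in 3A+3B, 14 for the DNMT1 response, 46 varying in the first set and 6 rises in the cluster in siDNMT3L. Without the dim genes siD1+3A+3B had 44 (29 in the report). The DNMT3L response with against without DNMT3B siRNA on DNMT3A siRNA was called for 1 gene without the dim genes, 1 after quantile normalization, 2 with a trended and robust prior and 1 with array weights, in place of 0.

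Leaving out single arrays gave 20 to 32 for the average effect of DNMT1 siRNA, 17 to 29 for DNMT3A, 12 to 26 for DNMT3B, 30 to 48 for DNMT3L and 12 to 19 for DNMT1 in place of DNMT3L. It gave 24 to 35 in siDNMT1, 35 to 47 in siDNMT3B, 32 to 42 in siDNMT3L, 8 to 14 in siDNMT3A, 19 to 29 in siD1+3A, 14 to 22 in siD1+3A+3B, 20 to 26 in siD1+3B, 5 to 11 in 3A+3B, 23 to 30 in 3A+3L, 6 to 16 in 3B+3L, 30 to 36 in 3A+3B+3L and 81 to 102 between the controls. It gave 9 to 27 for the DNMT1 response with against without DNMT3A siRNA, and 6 to 12 rises of the cluster in siDNMT3L. Fitted with the replicate number as a block, the counts were 32, 33, 24 and 46 for the averages of DNMT1, DNMT3A, DNMT3B and DNMT3L siRNA, 42, 50 and 46 in siDNMT1, siDNMT3B and siDNMT3L and 105 between the controls, all within 1.5 times those of the report; the replicate numbers do not pair the arrays.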
